A study of Mus musculus with 24 samples.

Results

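Tmem266, Fam222a, Tpte, Ttll8 and Ackr3 are 5 genes that the liver uses little. They were much higher in obese mice 4 h after an injection of a glucagon receptor agonist, Ackr3 by group means only without vehicle replicate 1. They were picked from the count table by symbol, for a large rise at 4 h that fades by 22 h, so the rises and declines below describe the choice and carry no test. All 5 were in the table of 22355 genes, and all 5 were among the 11508 genes that passed the filter on low counts. The working description, silent genes switched on briefly, held in part. All 5 were low in vehicle livers, except Ackr3 in vehicle replicate 1, where it was far higher. Only Tmem266 had a vehicle liver with no count. At 22 h Tmem266 was still well above vehicle, Fam222a and Tpte were far below their 4 h levels but above the vehicle means, Ttll8 was near the vehicle level, and Ackr3 was below it.

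Every mouse was diet-induced obese (DIO) and had 4 d of treatment. One group of 8 received IUB288, an agonist of the glucagon receptor known by its code name, and gave liver 22 h after the final dose. A second group of 8 had IUB288 and gave liver 4 h after the final dose. The remaining 8 mice had vehicle, with liver taken 22 h after the final injection, so between the IUB288 4 h and vehicle groups the drug and the time since injection cannot be told apart. The sources used here give no age, sex or strain. In whole liver, fewer cells of a type and less RNA per cell cannot be told apart.

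The glucagon receptor of hepatocytes couples to a stimulatory G protein. Its activation raises cyclic AMP, protein kinase A phosphorylates the transcription factor CREB, and a wave of short-lived transcripts follows, among them regulators of glucose production such as Ppargc1a. Tmem266 and Tpte encode membrane proteins with a voltage sensor, described mainly in cerebellar neurons and in testis. In Tpte the sensor is joined to a phosphatase domain that acts on lipids in relatives. Fam222a encodes aggregatin, a little-studied protein found in amyloid plaques. Ttll8 is a ligase that adds the first glycine of a side chain on tubulin in motile cilia. Ackr3, also called CXCR7, is an atypical chemokine receptor that takes up the chemokine CXCL12 and signals through arrestins instead of G proteins.

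On GRCm38, Tmem266 lay on the plus strand at chr9:55326913-55438345, Fam222a on the plus strand at chr5:114568016-114613220 and Tpte on the plus strand at chr8:22283441-22371418. Ttll8 lay on the minus strand at chr15:88890633-88954418, and Ackr3 on the plus strand at chr1:90203980-90216751. These are GENCODE gene bounds, and all 5 are annotated as protein-coding. The RefSeq set of promoters (GRCm38.p6) matched 4 of the 5 symbols, and Tmem266 was the other. The 250 bases before the start that the promoter set gives for each are printed because the 4 genes were high together at 4 h. Their promoters were of different kinds. Annotated starts differ, and most of the Fam222a window lies inside the GENCODE bounds above. RefSeq gene bounds begin Tpte at 22283315 and Ttll8 at 88955051. Part of the Tpte window and all of the Ttll8 window thus lie inside those bounds. Capitals mark CG dinucleotides.

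Fam222a, chr5:114568001-114568250, plus strand: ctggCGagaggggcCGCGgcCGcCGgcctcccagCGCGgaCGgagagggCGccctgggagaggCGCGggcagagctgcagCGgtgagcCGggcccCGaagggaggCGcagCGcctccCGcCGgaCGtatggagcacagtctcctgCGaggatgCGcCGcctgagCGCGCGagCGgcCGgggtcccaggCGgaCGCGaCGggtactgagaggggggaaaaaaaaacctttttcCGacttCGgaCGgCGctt

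Tpte, chr8:22283191-22283440, plus strand: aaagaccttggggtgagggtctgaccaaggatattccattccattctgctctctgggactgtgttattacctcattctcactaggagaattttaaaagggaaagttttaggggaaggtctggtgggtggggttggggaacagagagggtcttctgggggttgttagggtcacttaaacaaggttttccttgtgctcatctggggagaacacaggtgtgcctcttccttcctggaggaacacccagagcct

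Ttll8, chr15:88954419-88954668, minus strand: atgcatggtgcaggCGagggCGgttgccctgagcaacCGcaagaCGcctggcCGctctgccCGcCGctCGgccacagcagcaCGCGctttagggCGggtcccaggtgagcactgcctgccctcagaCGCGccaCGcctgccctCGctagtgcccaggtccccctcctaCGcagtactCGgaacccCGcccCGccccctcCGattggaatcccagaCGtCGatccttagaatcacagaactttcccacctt

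Ackr3, chr1:90203730-90203979, plus strand: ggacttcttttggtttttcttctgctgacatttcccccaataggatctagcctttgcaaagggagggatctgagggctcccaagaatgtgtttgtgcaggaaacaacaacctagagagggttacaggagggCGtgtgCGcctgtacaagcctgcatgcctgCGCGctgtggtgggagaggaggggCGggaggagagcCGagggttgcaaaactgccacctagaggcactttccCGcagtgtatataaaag

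The Fam222a window held 35 CG dinucleotides at a GC content of 73.2%, and 97.0% of the 32851 RefSeq windows of this length held fewer. The Ttll8 window held 22, at 66.8% GC. The Ackr3 window held 7, close to the median of 6 over all windows. The Tpte window held none, at 49.6% GC. Neither TGACGTCA, the full site bound by CREB, nor its core TGACG was found on either strand of the 4 windows. Over all windows 1.55% held the full site and 17.8% the core, which the full site contains. AAAGGTCA, bound by NR4A receptors, was in none of the 4 and in 1.34% of all windows. TATAAA was found once, beginning 8 bases before the start of Ackr3, and 12.4% of all windows held it. These are matches of letters in short windows and say nothing of which factors bound. Windows before other annotated starts of the 4 genes were not searched.

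Libraries held 25.8 to 35.2 M counts in IUB288 22 h livers, 24.7 to 35.2 M in IUB288 4 h livers and 13.99 to 44.1 M in vehicle livers. Levels are given as CPM, the counts of a gene per 1000000 counts of the library after TMM scaling, and 3 counts came to about 0.1 CPM in most libraries. All 7 hepatocyte markers, albumin among them, passed the filter. Of these, 5 fell and 2 rose at 22 h against vehicle, and 6 fell and 1 rose at 4 h, where 19.2% and 22.5% of all genes tested fell (limma-voom, Benjamini-Hochberg adjusted p under 0.05). Their summed level had a median of 59167 CPM at 22 h, 62138 CPM at 4 h and 87935 CPM in vehicle livers, and its part in the changes below was not tested. Vehicle replicate 1 stood apart. Ucp1, the uncoupling protein of brown fat, was at 1388 CPM there, against at most 0.533 CPM in any IUB288 liver. Its sum over 5 white adipocyte markers was 2544 CPM, against 30.3 to 48.5 CPM in the other 7 vehicle livers. Results that rest on it are given with and without it.

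**Figure D1:**
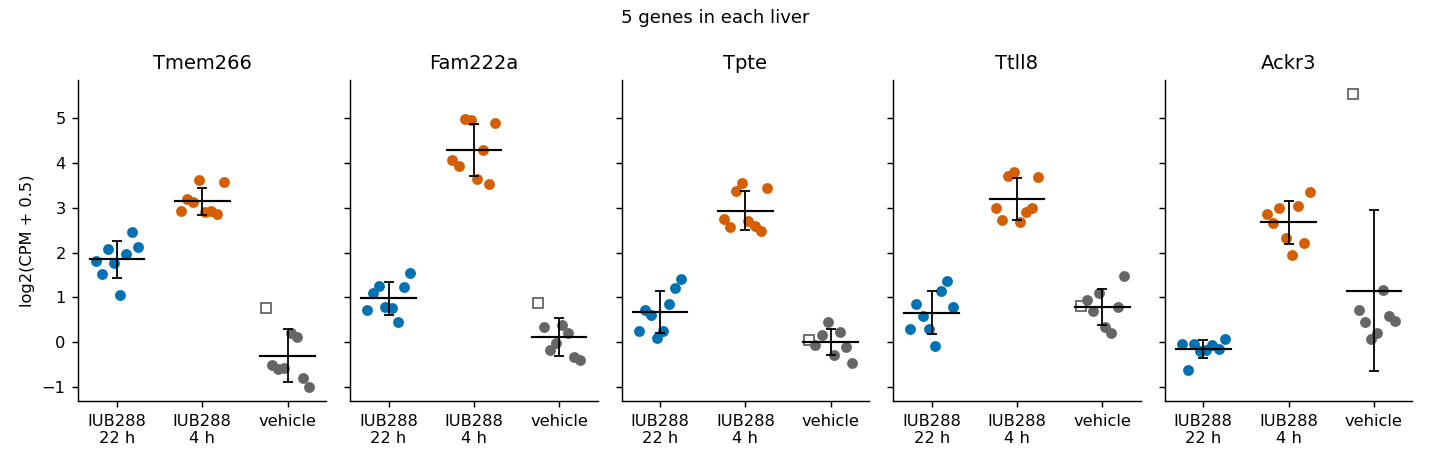
Each panel shows 1 gene as log2(CPM + 0.5) in every liver, for IUB288 22 h, IUB288 4 h and vehicle (8 livers each). Lines and bars are the mean and SD of the 8 values, and the open square is vehicle replicate 1. The IUB288 4 h livers lie above all vehicle livers for every gene but Ackr3, whose single high vehicle liver is at 46.02 CPM.

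Tmem266 had 6.82, 7.74 and 11.9 CPM as the lowest, median and highest of the IUB288 4 h livers, against 0, 0.186 and 1.19 CPM in vehicle livers. One vehicle liver had no count, which allows up to about the level of 3 counts, and the others had up to 54. The 4 h and vehicle groups did not overlap, and the ratio of their means was 22.6. The fitted log2 fold change was 5.02 ± 0.53 (SE), which rests on few vehicle counts. It was 4.44 without vehicle replicate 8, the liver at 0, and 5.44 without vehicle replicate 1, the highest, when the ratio of means was 32.4. At 22 h Tmem266 had 1.57, 3.22 and 4.97 CPM, so all 8 of the IUB288 22 h livers were below every 4 h liver and above every vehicle liver. The fitted log2 fold change at 22 h was -1.44 ± 0.24 against 4 h and 3.57 ± 0.54 against vehicle.

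Tpte, the other voltage-sensor protein, had 5.06, 6.16 and 11.3 CPM as lowest, median and highest at 4 h, against 0.224, 0.492 and 0.866 CPM in vehicle livers. These groups did not overlap, with a fitted log2 fold change of 3.84 ± 0.34. In IUB288 22 h livers Tpte had 0.563, 1.08 and 2.15 CPM, below every 4 h liver, and 5 of the 8 were above the highest vehicle liver. The fitted log2 fold change at 22 h was -2.74 ± 0.27 against 4 h and 1.10 ± 0.39 against vehicle. The remainder at 22 h differed between the sets of sample numbers in the mouse names. Against vehicle, the ratio of means was 3.63 in numbers 13 to 24 and 1.38 in numbers 1 to 12 (4 livers of each group in each set). The ratio was also higher in numbers 13 to 24 for the other genes. It was 10.4 against 7.02 for Tmem266, 3.17 against 1.97 for Fam222a and 1.11 against 0.691 for Ttll8. For Ackr3 it was 0.414 against 0.0301. Numbers 1 to 12 hold vehicle replicate 1, the highest vehicle liver for Tmem266, Fam222a and Ackr3.

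Fam222a was the highest of the 5 at 4 h. It had 11.2, 17.7 and 31.2 CPM in the IUB288 4 h livers, against 0.256, 0.564 and 1.34 CPM in vehicle livers, a ratio of means of 33.1 and a fitted log2 fold change of 4.93 ± 0.46. In IUB288 22 h livers it had 0.855, 1.43 and 2.43 CPM, below every 4 h liver, with a fitted log2 fold change of -3.70 ± 0.33 against 4 h. All 8 of the 22 h livers were above the vehicle mean and 4 were above the highest vehicle liver, replicate 1. The other 7 vehicle livers ran up to 0.805 CPM, below all 8. The fitted log2 fold change at 22 h against vehicle was 1.23 ± 0.54, and 1.45 ± 0.61 without vehicle replicate 1. Per kilobase of exon, mean levels at 4 h were 6.55 ± 2.70 CPM for Fam222a, 2.72 ± 0.93 for Tpte, 2.65 ± 0.93 for Ttll8, 1.85 ± 0.63 for Ackr3 and 1.82 ± 0.43 for Tmem266 (SD, n = 8 each). The last 4 overlapped one another in their spread.

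Ttll8 had 5.94, 7.44 and 13.5 CPM at 4 h, against 0.644, 1.24 and 2.27 CPM in vehicle livers, where it had 17 to 71 counts in each library. It was thus low in vehicle livers but not silent, as were Fam222a, with 4 to 61 counts there, and Tpte, with 6 to 25. The groups did not overlap, and the fitted log2 fold change was 2.82 ± 0.29. In IUB288 22 h livers it had 0.444, 1.10 and 2.07 CPM, mostly within the vehicle range, with a fitted log2 fold change of -3.03 ± 0.30 against 4 h and -0.21 ± 0.37 against vehicle.

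Ackr3 had 3.36, 6.32 and 9.69 CPM in the IUB288 4 h livers. In vehicle livers the lowest, median and highest were 0.554, 0.952 and 46.02 CPM, and the 46.02 CPM (2092 counts) was vehicle replicate 1. The other 7 vehicle livers ran up to 1.74 CPM and averaged 0.979 ± 0.391 CPM (SD, n = 7), below every 4 h liver. The fitted log2 fold change at 4 h was 1.75 ± 0.54 with all 24 libraries and 2.64 ± 0.29 without that liver. By group means, the ratio of 4 h to vehicle was 0.937 with that liver and 6.32 without it. The IUB288 22 h livers had 0.149, 0.426 and 0.548 CPM, below every 4 h liver and, by a narrow margin, below every vehicle liver. The fitted log2 fold change at 22 h against vehicle was -2.15 ± 0.89, and -1.25 ± 0.42 without vehicle replicate 1. Against 4 h it was -3.89 ± 0.81, and -3.89 ± 0.36 without that liver.

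The groups at 4 h and in vehicle did not overlap for 4, where 21.7% of all genes tested were called higher and 22.5% lower at 4 h (same test and threshold). At 22 h and 4 h they did not overlap for any of the 5, where 15% of all genes were called lower and 14.3% higher at 22 h. The groups at 22 h and in vehicle were apart for Tmem266, which was higher, and Ackr3, which was lower, where 17.6% and 19.2% of all genes were called higher and lower. Without vehicle replicate 1, Fam222a was apart as well. The shares called are another measure than groups that do not overlap, and the share of all genes without overlap is not given. Since the genes were also picked on these contrasts, nothing is read from how many of the 5 were apart. The median fitted log2 fold change of the 5 was 3.84 for 4 h against vehicle, 1.10 for 22 h against vehicle and -3.03 for 22 h against 4 h. Over all genes tested the same medians were -0.07, -0.02 and -0.02.

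The genes differed in how much of the 4 h excess over vehicle was left at 22 h, by group means in CPM. Tmem266 kept 34.8% of it, between 31.8% and 37.7% when any 1 liver was left out. Tpte kept 9.40% and Fam222a 4.52%. For Ttll8 the value was -1.82%, at the vehicle level. For Ackr3 it was -11.0% without vehicle replicate 1, the 22 h mean being under that of the other vehicle livers, and with that liver no such share can be given.

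Within the IUB288 4 h group, Fam222a, Tpte and Ttll8 were highest in the same 3 livers, replicates 3, 4 and 8. Fam222a had 29.2 to 31.2 CPM in those and 11.2 to 19.1 CPM in the other 5. Tpte had 9.97 to 11.3 CPM in those and 5.06 to 6.26 CPM in the other 5, and Ttll8 had 12.4 to 13.5 CPM and 5.94 to 7.45 CPM. Each gene left a gap of 1.53-fold to 1.67-fold between the sets of livers. Tmem266 was highest in replicates 4 and 8, at 11.9 and 11.4 CPM, but replicate 3, at 8.31 CPM, was not above the rest. Ackr3 shared the order in part. It was highest in replicate 8, at 9.69 CPM, and the third highest in replicate 3, at 7.43 CPM, but replicate 4, at 4.56 CPM, was among its lower values. Because the livers fall into 2 sets of fewer than 6, no correlation between the genes is given. Ppargc1a, the coactivator that raises glucose production, also had its 3 highest values in replicates 3, 4 and 8, at 145, 235 and 154 CPM, against 103 to 120 CPM in the other 5. Of the 15 genes named further on as most like a member over the 24 libraries, 6 had the same 3 livers highest: Ppargc1a, Fh1, Etnk2, Crcp, Slc25a15 and Tob1. The other 9, with Sik1, Shb and Crem among them, did not. The 15 were chosen by likeness over libraries that include the 4 h livers, so a shared order is partly built in. The same count over all genes tested is not given. What replicates 3, 4 and 8 share was not tested.

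**Figure D2:**
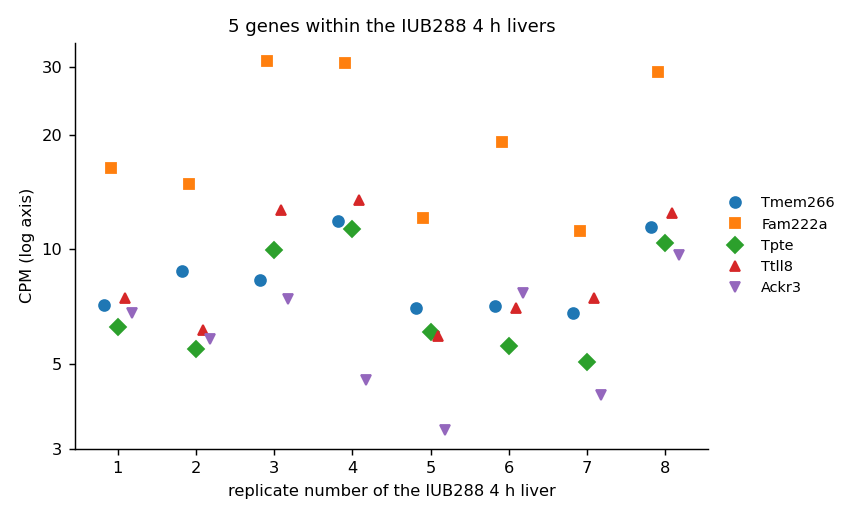
CPM of the 5 genes (log axis) in each of the 8 IUB288 4 h livers, by replicate number. Fam222a, Tpte and Ttll8 are high together in replicates 3, 4 and 8, while Ackr3, at 3.36 to 9.69 CPM, is high in replicates 3 and 8 but not in replicate 4.

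No tested relative of these genes rose as far as they did, and some fell. These genes were picked for a large rise, so a smaller one in relatives follows from the choice. The table held 15 of 27 listed tubulin genes, 23 of 34 phosphatases and 20 of 33 chemokine genes, and the rest could not be examined. For Ttll8, 11 of 27 listed tubulin ligases and reversing enzymes were tested, and at 4 h 2 rose and 3 fell. Ttll3, the other initiating glycine ligase, averaged 2.12 ± 0.50 CPM at 4 h and 1.44 ± 0.41 CPM in vehicle livers (log2 fold change 0.53, adjusted p = 0.0245, limma-voom, above the vehicle mean in 8 of 8 livers). It missed the threshold without vehicle replicate 3 (adjusted p = 0.0558) or without IUB288 4 h replicate 1 (adjusted p = 0.0581). Ttll10, which extends glycine chains, fell to 2.50 ± 0.43 CPM at 4 h, against 4.43 ± 1.05 CPM in vehicle livers (log2 fold change -0.81, adjusted p = 5.17e-05, below the vehicle mean in all 8). Ttll5, a glutamate ligase, also fell (log2 fold change -0.52, adjusted p = 8.30e-05). The third that fell was Vash1, an enzyme that removes the terminal tyrosine of tubulin (-0.54, adjusted p = 0.00607). The other gene that rose was Hdac6, a tubulin deacetylase, with a log2 fold change of 0.18 (adjusted p = 0.0287). It missed the threshold with scaling by library totals alone (adjusted p = 0.121) and without vehicle replicate 3 or 4 or IUB288 4 h replicate 4 or 8 (adjusted p 0.0540 to 0.0652), so 0 to 2 of the 11 rose with any 1 library left out. At 22 h against vehicle 1 of the 11 rose and 3 fell. Of 23 genes listed for the cilium axoneme, where TTLL8 acts, 8 were tested, and at 4 h 1 rose (12.5%) and 2 fell (25%). Over all genes tested 21.7% rose and 22.5% fell, so nothing is read from these axoneme counts. Rsph4a, a protein of the radial spoke head, fell to 0.340 ± 0.176 CPM at 4 h, against 1.18 ± 0.57 CPM in vehicle livers (log2 fold change -1.85, adjusted p = 0.00347). Ift88, which carries cargo within cilia, fell by 0.31 on the log2 scale (adjusted p = 0.002). The riser, Cfap43, did not pass without vehicle replicate 1 (adjusted p = 0.0564), nor without 8 other libraries in turn.

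For Tpte, 23 of 34 listed phosphoinositide phosphatases and relatives were tested, of which 5 rose and 5 fell at 4 h. With any 1 library left out, 5 to 8 rose and 3 to 7 fell. The 8 were without vehicle replicate 1, and the 3 without IUB288 4 h replicate 4 or 8. Gak, a kinase that helps to uncoat clathrin vesicles, rose by 0.38 on the log2 scale (adjusted p = 8.26e-07, limma-voom), above the vehicle mean in 8 of 8 livers. The strongest change of the list was in Synj2, a phosphoinositide phosphatase, which fell to 9.90 ± 2.89 CPM at 4 h, against 30.4 ± 3.59 CPM in vehicle livers (log2 fold change -1.65, adjusted p = 2.97e-08). At 22 h against 4 h, 4 of the 23 rose, Synj2 among them, and 5 fell, or 8 without vehicle replicate 1. The only relative of Fam222a, Fam222b, averaged 29.0 ± 1.07 CPM at 4 h and 26.9 ± 2.82 CPM in vehicle livers and did not pass the test (adjusted p = 0.183).

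For Ackr3, 17 of 33 listed genes of the chemokine receptor and adrenomedullin axis were tested, of which 1 rose and 3 fell at 4 h. Without vehicle replicate 1 the kinase Grk2 also rose (adjusted p = 0.00676), and 2 also rose without vehicle replicate 5 or IUB288 4 h replicate 4. Cxcl12, its ligand, averaged 466 ± 43.1 CPM at 22 h, 435 ± 46.7 CPM at 4 h and 420 ± 33.3 CPM in vehicle livers, with adjusted p of 0.593 at 4 h and 0.0898 at 22 h against vehicle (limma-voom). Cxcr4, the signalling receptor for the same ligand, averaged 3.80 ± 1.03 CPM at 4 h and 3.74 ± 0.90 CPM in vehicle livers (adjusted p = 0.990). Ackr4, another atypical receptor, fell at 4 h to 5.35 ± 1.06 CPM, against 7.74 ± 1.29 CPM in vehicle livers (log2 fold change -0.54, adjusted p = 0.0046), and was 8.28 ± 2.02 CPM at 22 h. Arrb1, an arrestin, fell by 0.47 on the log2 scale (adjusted p = 0.0137), and Cd74, the receptor for the cytokine MIF, fell by 0.99 (adjusted p = 0.00063). Mif itself rose by 0.35 (adjusted p = 0.0048). At 22 h against vehicle 1 of the 17 rose and 4 fell. At 4 h, the shares that rose and fell were 18.2% and 27.3% of the tubulin genes, 21.7% and 21.7% of the phosphatases and 5.88% and 17.6% of the chemokine genes, beside 21.7% and 22.5% of all genes. At 22 h against vehicle they were 9.09% and 27.3%, 17.4% and 17.4%, and 5.88% and 23.5% of these sets, beside 17.6% and 19.2% of all genes. Without vehicle replicate 1, 34.8% of the phosphatases rose at 4 h, beside 22.3% of all genes. Nothing is read from shares of sets this small.

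**Figure D3:**
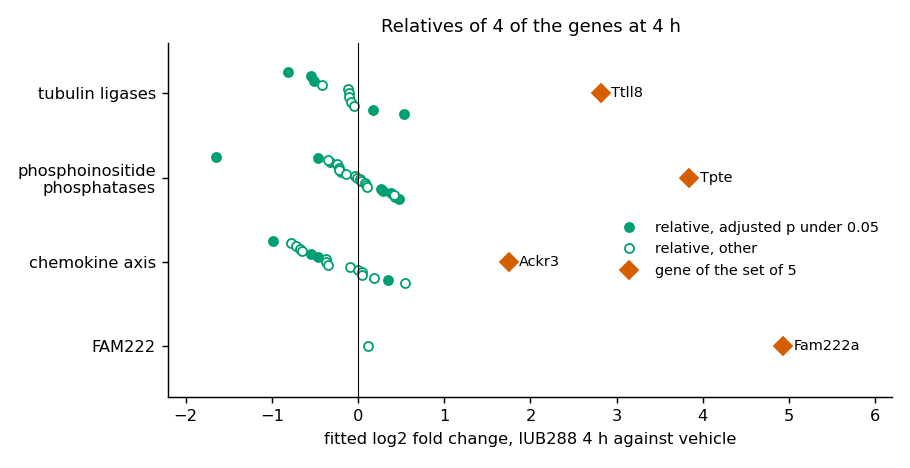
Fitted log2 fold change at 4 h against vehicle for the tested relatives of Ttll8, Tpte, Ackr3 and Fam222a (circles, filled where the adjusted p was under 0.05) and for the 4 genes themselves (diamonds). No relative exceeds a change of 1 upward, Synj2 lies at -1.65, and the diamonds lie between 1.75 and 4.93.

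Ackr3 is also made by endothelial and stromal cells, and their markers moved between the groups. None of the 9 endothelial markers rose and 4 fell at 4 h against vehicle (2 without IUB288 4 h replicate 6), and all 9 fell at 22 h against vehicle (8 or 9 with any 1 library left out), where 22.5% of all genes fell at 4 h and 19.2% at 22 h. Their summed level was 160 to 396 CPM at 22 h, 359 to 424 CPM at 4 h and 346 to 621 CPM in vehicle livers. Of 8 stellate cell and fibroblast markers tested, 7 fell at 22 h and 5 at 4 h. The part of these cells in the levels of Ackr3 at 4 h and at 22 h was not tested. Likewise the part of fat cells in the 46.02 CPM of vehicle replicate 1 was not tested. The white adipocyte sum was 9.40 to 20.7 CPM at 22 h and 13.2 to 30.2 CPM at 4 h.

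**Figure D4:**
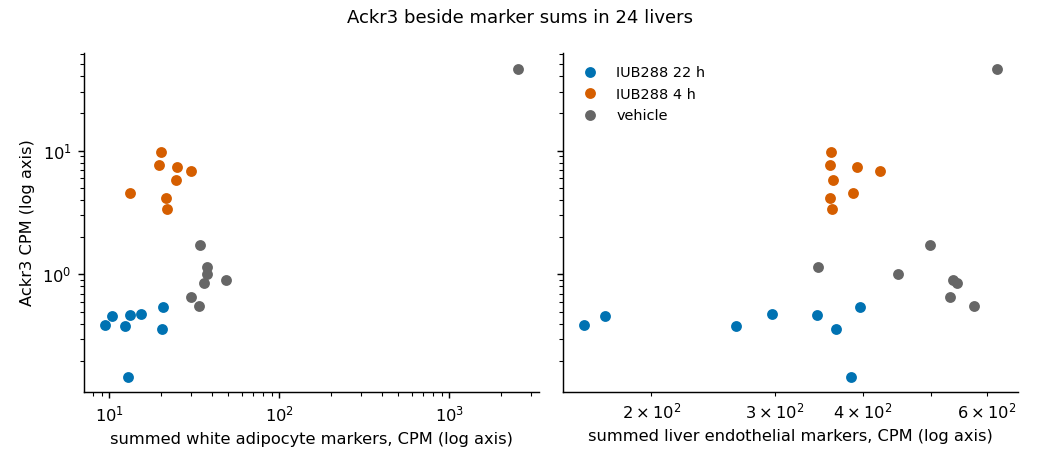
Ackr3 CPM in each of the 24 livers against the summed CPM of white adipocyte markers (left) and liver endothelial markers (right), all axes logarithmic. Vehicle replicate 1 is the single point at an adipocyte sum of 2544 CPM, and the IUB288 4 h livers lie above the other vehicle livers at similar or lower marker sums.

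Most markers of germ cells and neurons, where Tpte and Tmem266 are best known, were at or near 0. Of 14 germ cell markers 11 were in the table and 2 were tested, and Tnp2 and Pgk2 had no count in any liver. Their sum was 2.89 to 4.80 CPM at 22 h, 3.73 to 5.68 CPM at 4 h and 3.07 to 6.05 CPM in vehicle livers, most of it Sycp3. Adam2, a sperm surface protein, averaged 0.702 ± 0.201 CPM at 4 h, against 0.133 ± 0.119 CPM in vehicle livers (log2 fold change 2.52). At 22 h it averaged 0.232 ± 0.132 CPM. It passed the filter on low counts mainly through the 4 h livers, so no test is read from its rise. Of the 12 neuron markers 11 were in the table and 2 were tested, Syt1 and Map2, and neither rose. Their sum was 12.6 to 23.0 CPM at 22 h, 17.1 to 24.6 CPM at 4 h and 17.1 to 29.0 CPM in vehicle livers, most of it Syt1. The synaptic gene Snap25 averaged 0 CPM at 22 h and 4 h and 0.0352 CPM in vehicle livers.

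Slc25a15, the mitochondrial ornithine carrier of the urea cycle, lies 4.13 kb beyond Tpte, on the opposite strand, so that the ends of the genes face each other. It rose to 1677 ± 346 CPM at 4 h, against 394 ± 40.5 CPM in vehicle livers (log2 fold change 2.07, adjusted p = 7.02e-13, limma-voom, in 8 of 8 livers). At 22 h it averaged 691 ± 126 CPM, also above vehicle (log2 fold change 0.79, adjusted p = 8.95e-06). Whether reads were counted by strand was not given in the sources used here, and transcription running past the end of Slc25a15 into Tpte was not tested. Pim3, a kinase gene 24.1 kb from the end of Ttll8, rose to 59.7 ± 22.6 CPM at 4 h, against 17.9 ± 5.69 CPM in vehicle livers (log2 fold change 1.68, adjusted p = 5.19e-07). It averaged 21.0 ± 4.67 CPM at 22 h and was not called there (adjusted p = 0.50). Mlc1, 0.833 kb from the start of Ttll8, had almost no counts in any group. Farther tested coding genes did not rise at 4 h. Smim19, 91.2 kb from Tpte, had a log2 fold change of -0.23 (adjusted p = 0.0589, limma-voom). Alg12, 70.5 kb from Ttll8, had one of -0.03 (adjusted p = 0.847).

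The tested neighbours of the other genes did not share their rise, or only slightly. Some coding neighbours were not in the table and could not be examined. They were Trpv4, 8.93 kb from Fam222a, Nrg4, 43.3 kb from Tmem266, and Iqca, 50.5 kb from Ackr3. Thsd1, 20.4 kb from Tpte, was also absent. Etfa, 16.1 kb from Tmem266, averaged 412 ± 33.9 CPM at 4 h and 418 ± 79.6 CPM in vehicle livers (adjusted p = 1.000). Mvk, 108 kb from Fam222a and part of sterol synthesis, fell (log2 fold change -1.01, adjusted p = 6.40e-06). Cops8, 387 kb from Ackr3, rose by 0.28 (adjusted p = 6.68e-05). A pair of predicted RNAs that overlap Fam222a and Ttll8 had the same course at a lower level. Gm34844, at Fam222a, averaged 0.0523 CPM at 22 h, 0.723 CPM at 4 h and 0.0648 CPM in vehicle livers. Gm38643, at Ttll8, averaged 0.195, 0.590 and 0.144 CPM in the same groups. Both fell under the filter, and reads of overlapping genes cannot be told apart without the strand.

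**Figure D5:**
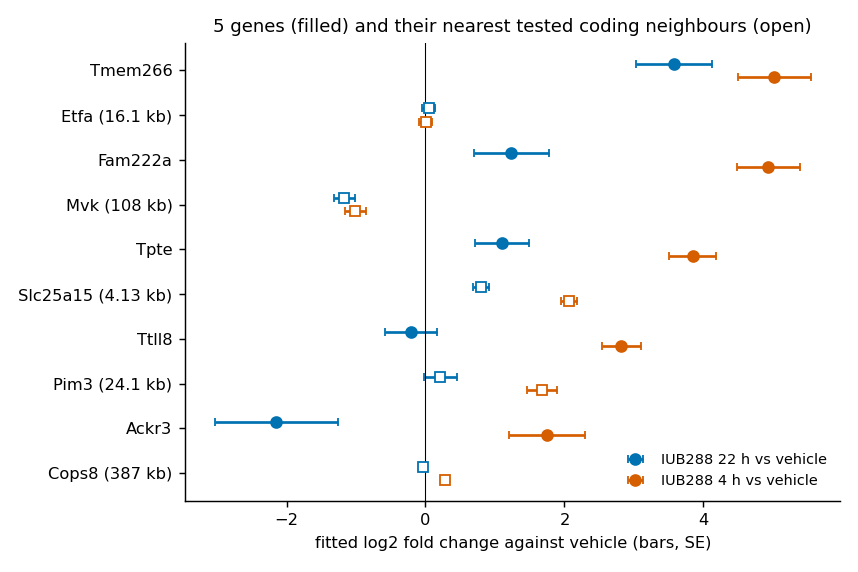
Fitted log2 fold change against vehicle at 22 h and at 4 h (bars, SE) for the 5 genes (filled circles) and their nearest tested coding neighbours (open squares, with the distance in kb). Slc25a15 and Pim3 lie to the right of 0 at 4 h with Tpte and Ttll8, at 2.07 and 1.68, while Etfa lies at 0.

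Likeness to each member was taken from log2(CPM + 0.5) over the 24 libraries. The genes most like Fam222a, Ttll8, Tpte and Tmem266 were not low in vehicle livers. Their vehicle means ran from 11.5 CPM (Paqr3) to 394 CPM (Slc25a15). For Fam222a they were Ppargc1a (Pearson r = 0.97), Sik1, a kinase that restrains CREB coactivators (0.97), and the adaptor Shb (0.97). For Ttll8 they were Tob1 (0.96), Paqr3 (0.96) and Crem (0.95), a CREB family member. For Tpte they were Crcp (0.97), its neighbour Slc25a15 (0.97) and Hip1r (0.97). For Tmem266 they were Fh1, which encodes fumarase (0.97), Whamm (0.97) and Etnk2 (0.96), all of which, like Tmem266, had 22 h means between those of 4 h and vehicle. Etnk2, an ethanolamine kinase, averaged 330 ± 82.0 CPM at 22 h, 617 ± 127 CPM at 4 h and 139 ± 16.7 CPM in vehicle livers. The libraries share their groups, so these values describe a common course over groups and have no p.

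Left to 23 libraries without vehicle replicate 1, the genes nearest to Ackr3 were Cldnd1 (0.95), Lonrf1 (0.94) and Rc3h2 (0.94). With that liver they had been Tmem120b (0.94), Tor3a (0.92) and Notch3 (0.92), so that list rested on it. Those nearest to Fam222a also changed, to Slc25a51, Atp1b1 and Plk3, each with r of 0.98. Crem gave way to Rusc2 (0.95) for Ttll8, and Whamm to Sdc1 (0.97) for Tmem266. Slc25a51, the mitochondrial carrier of NAD, was also the nearest to Tpte in this setting (0.98). It averaged 146 ± 25.3 CPM at 22 h, 405 ± 62.8 CPM at 4 h and 104 ± 11.8 CPM in the 7 vehicle livers.

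The 5 genes were not alone in their course. Of 2472 tested genes under 1 CPM in vehicle livers on average, 88 were called higher at 4 h by at least 4-fold, and 54 of those were also called lower at 22 h than at 4 h. A gene near 0 in vehicle livers passed the filter on low counts only if it was higher in IUB288 livers. These counts are thus partly set by the filter, and nothing is read from their size. Fam222a, Tmem266 and Tpte were 3 of the 54. Ttll8 was outside them with a vehicle mean of 1.29 CPM, and Ackr3 with 6.61 CPM. Without vehicle replicate 1 there were 56, among them Ackr3, and 52 genes were common to both sets. Among the 51 others were 27 predicted gene models. They include the 5 highest at 4 h, Gm36322, Gm33679, Gm16062, Gm29924 and Gm34833. Gm36322 averaged 0.960 ± 0.399 CPM at 22 h, 8.40 ± 3.81 CPM at 4 h and 0.342 ± 0.116 CPM in vehicle livers. The median share of the 4 h excess left at 22 h over the 51 was 16.4%, with a range of -15.9% to 59.7%, and the 34.8% of Tmem266 lay inside it. Of named genes, chosen here after their values were seen, Dynlt4, a dynein light chain, was at 0.216 ± 0.097 CPM at 22 h, 4.89 ± 0.83 CPM at 4 h and 0.224 ± 0.106 CPM in vehicle livers. Adcy1, an adenylyl cyclase best known in neurons, was at 0.587 ± 0.256, 2.35 ± 0.97 and 0.281 ± 0.184 CPM in the same groups.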

How the data were processed

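RNA from frozen liver of 24 mice was prepared with the miRNeasy Mini Kit and made into libraries with the KAPA mRNA HyperPrep kit, per the labels' protocols. The submitters' processing notes name cutadapt, GSNAP and the build GRCm38, and the authors deposited 1 table of whole-number read counts per gene. Versions, the counting tool, the gene annotation and whether strand was used are not given in the sources used here.

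All 536520 deposited values were whole and none was below 0. Counts of the 84 within-group library pairs differed by chi-square values of 14.7 to 233 per degree of freedom, so none was a copy of another. The table ends at Entrez number 50932 in text order, and genes after it, such as Nrg4 or Trpv4, were not analysed here. An edgeR quasi-likelihood test was the first choice, but edgeR was not run, since an automated unit check did not accept the quoted layout of the table as counts. The limma-voom test (limma 3.58.1, R 4.3.3) took its place, with the intended filter (minimum count 10, minimum total 15), TMM scaling (trims 30% and 5%), libraries and group means. It kept 11508 genes with 99.92% of counts, with 21 residual and 4.08 prior degrees of freedom. P-values were adjusted over all genes tested, and the script was tested on simulated data.

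The 5 genes and all lists were chosen with earlier results of these data known. One gene of the phosphatase list is not reported here. Relatives were named by the smallest p of each list, like genes by the 3 highest r outside predicted models, and genes of the same course by the 5 highest means at 4 h. Alternatives were other scalings, no filter, the 16 libraries compared, sample number, replicate block, leaving out each library and, added after seeing the data, limma-trend and sets without vehicle replicate 1. The mice are separate biological replicates, per the labels' design text. The level of 3 counts, given as the limit for a liver with no count, covers counting error only.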

Additional observations from a re-analysis of the deposited data

Results flagged for a closer look

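In the 15 sets of 8 values (5 genes in 3 groups), 2 had a value far from the rest by Dixon's test at its 95% limit for 8 values. Chance marks about 1 set in 20. Ackr3 in vehicle replicate 1, at 46.02 CPM, was far above the other 7 vehicle livers (0.554 to 1.74 CPM). That library also had a white adipocyte marker sum of 2544 CPM and a brown adipocyte marker sum of 2012 CPM, against 33.0 to 64.9 CPM for the brown markers in the other 7. Ackr3 in IUB288 22 h replicate 2, at 0.149 CPM (5 counts), was below the other 22 h livers. The part of counting error in that value was not tested.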

How the results depend on the processing

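The counts of genes called and the medians of the 5 genes kept their direction, and counts stayed within 1.5 times, under every alternative run. With any 1 library left out, the median log2 fold change of the 5 ran from 3.70 to 3.96 for 4 h against vehicle, from 0.96 to 1.22 for 22 h against vehicle and from -3.15 to -2.85 for 22 h against 4 h. The 1 reversal was Ackr3 at 4 h against vehicle within sample numbers 1 to 12, which hold vehicle replicate 1, with a log2 ratio of means of -0.98, against 2.53 in numbers 13 to 24. Same-numbered livers did not deviate together (4 of 24 pairs with r over 0.1, median 0.0097). This cannot exclude a pairing of the mice, and the labels do not say that the numbers pair them. With a replicate block, 2500 genes were called higher and 2925 lower at 4 h against vehicle, beside 2501 and 2590 without it, and the log2 fold change of Ackr3 was 0.86. Without vehicle replicate 1, 4 genes of the chemokine list fell at 22 h against 4 h in place of 2, and 4 of the axoneme list fell at 22 h against vehicle in place of 2. Counts over these short lists moved by 1 to 3 genes with many single libraries left out. edgeR and DESeq2 were not run. A correlation of the 5 genes within the 4 h livers is not given, because the livers form 2 sets. Vehicle values of Tmem266, Fam222a and Tpte rest on 0 to 61 counts a library, which limits the precision of their fold changes.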
